A study of Mus musculus with 451 samples.

Results

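The aryl hydrocarbon receptor pathway was described in tail tendon cells through 8 genes of the deposited count table, namely Cyp1b1, Ahr, Arnt, Ahrr, Tiparp, Nqo1, Nfe2l2 and Hmox1, out of the 48795 symbols in the table (25841 of them with any read). Cyp1b1 was selected on its summed level in these same cells, which was lower in Mkx-/- than in WT, so that difference is given as a description, and the question was whether the 7 other genes followed it. The cells came from the tail tendons of 4-week-old C57BL/6 mice that were either wild-type (WT, 227 cells) or lacked the Mohawk homeobox gene, a transcription factor gene of the tendon lineage (Mkx-/-, 224 cells). Tendons of both genotypes were digested with 0.2% collagenase I, and each cell was caught alone on a Fluidigm C1 HT circuit and gave its own library. Since no label ties a cell to an animal or a circuit, the cells of a genotype are 1 sample, animals, circuits and genotype cannot be told apart, and no test between genotypes was made.

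The aryl hydrocarbon receptor, encoded by Ahr, is a ligand-activated transcription factor of the basic helix-loop-helix PAS family that waits in the cytoplasm in a complex with HSP90 and, once it has bound a ligand such as a dioxin or a tryptophan metabolite, enters the nucleus and pairs with the ARNT protein. The pair binds DNA at the xenobiotic response element and switches on the cytochrome P450 genes Cyp1a1 and Cyp1b1 together with Ahrr and Tiparp, whose products restrain the receptor. The pathway meets that of NRF2, the regulator of antioxidant genes encoded by Nfe2l2, at genes such as Nqo1, and Hmox1 is a classical NRF2 target; the CYP1B1 enzyme itself oxidises oestrogens, retinoids and fatty acids and is known from mesenchymal cells, including fibroblasts.

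The stretch of 250 bases before the annotated start was available for 6 of the 8 genes in a RefSeq promoter table on GRCm38.p6, and for Ahr and Hmox1 none was printed. It was searched on both strands for the core of the xenobiotic response element, GCGTG, and for the core of the antioxidant response element at which NRF2 binds, TGACNNNGC. Of all 32851 windows of this length, 28.2% held GCGTG and 10.2% held TGACNNNGC. The windows of 4 receptor target genes are shown because their transcripts behaved unlike one another in these cells, and capitals mark each GCGTG or its reverse complement.
Cyp1b1 (chr17:79715062-79715311, minus strand): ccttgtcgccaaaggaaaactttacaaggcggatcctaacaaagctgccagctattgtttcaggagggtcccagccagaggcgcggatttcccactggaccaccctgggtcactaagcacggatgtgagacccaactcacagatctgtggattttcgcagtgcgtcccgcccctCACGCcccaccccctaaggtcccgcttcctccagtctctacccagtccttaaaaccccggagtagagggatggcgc
Cyp1a1 (chr9:57697363-57697612, plus strand): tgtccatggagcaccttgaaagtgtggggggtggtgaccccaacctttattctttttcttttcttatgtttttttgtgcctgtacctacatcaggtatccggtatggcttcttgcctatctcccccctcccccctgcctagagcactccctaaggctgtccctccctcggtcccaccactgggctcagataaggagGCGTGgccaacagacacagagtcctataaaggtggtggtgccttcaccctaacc
Ahrr (chr13:74292332-74292581, minus strand): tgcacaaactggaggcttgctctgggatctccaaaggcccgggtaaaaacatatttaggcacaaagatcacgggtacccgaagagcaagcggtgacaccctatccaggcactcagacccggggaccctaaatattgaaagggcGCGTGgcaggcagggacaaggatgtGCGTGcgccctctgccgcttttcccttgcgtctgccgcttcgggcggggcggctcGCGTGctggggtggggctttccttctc
Tiparp (chr3:65528197-65528446, plus strand): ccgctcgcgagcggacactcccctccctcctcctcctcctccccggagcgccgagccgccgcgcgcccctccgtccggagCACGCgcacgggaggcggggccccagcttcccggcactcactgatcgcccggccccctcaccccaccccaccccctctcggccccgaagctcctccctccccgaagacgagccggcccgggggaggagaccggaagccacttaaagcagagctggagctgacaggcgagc
Each of the 4 windows held the xenobiotic core, 3 times in Ahrr and 1 time in Cyp1b1, Cyp1a1 and Tiparp, and none held the antioxidant core. Of the other windows, that of Arnt held 1 xenobiotic and 2 antioxidant cores, that of Nfe2l2 held 1 antioxidant core and that of Nqo1 held neither. A match describes the letters of this window only.

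Reads were summed over the cells of a genotype and divided by all of its reads to give library-scaled counts (CPM), with exact intervals at the 95% level that cover counting error only. The WT cells held 13630536 reads in all (13076 to 335813 per cell, median 51788) and the Mkx-/- cells 14145394 (14226 to 294791, median 56121). Mkx itself stood at 33.8 CPM in WT against 15.5 CPM in Mkx-/- cells (log2 ratio -1.13), and whether the remaining reads lie outside the deleted part is not given in the sources used here. Clustering of all cells in 1693 variable genes gave 3 groups present in both genotypes. All 5 progenitor markers were highest in a TPC-like (tendon progenitor) group (47.1% of WT and 44.6% of Mkx-/- cells), and all 6 tenocyte markers were highest in a TC-like (tenocyte) group of 74 WT and 80 Mkx-/- cells, which was also led by the cartilage-associated genes Ucma and Col2a1. The remaining 46 WT and 44 Mkx-/- cells, whose leading genes include Mmp10 and Mmp3, rested on only 2 tenoblast markers and are called cluster 3. Lists of other cell types were at or near 0 for skeletal muscle (1.83 and 0.566 CPM in WT and Mkx-/-) and red cells (9.46 and 1.06 CPM). Endothelial markers summed to 89.8 and 31.4 CPM, and mural markers to 119.1 and 94.9. Cartilage markers summed to 298 and 222.4 CPM, and epidermal markers to 37.7 and 36.6. Macrophage and osteoclast markers summed to 1177 and 1552 CPM. In that list Ctsk had most reads and a log2 ratio of 0.48, while the 4 other measured markers were below 0. Schwann cell markers summed to 229 CPM in Mkx-/- and to less in WT, with 72.6% and 42.6% of those reads in 1 cell each. The part of any of these cell type markers in the differences between genotypes was not tested, except where values without the wells that carry them are given.

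Cyp1b1 (chr17:79706940-79715061 on GRCm38.p6) was 4.05-fold lower in Mkx-/- than in WT cells. Summed over cells, the WT level was 124.9 CPM (1703 reads) and the Mkx-/- level 30.8 CPM (436 reads), for a log2 ratio of -2.02 (-2.17 to -1.87). Most cells of both genotypes had no Cyp1b1 read, so the lowest and the median level per cell were 0 in each, and the highest were 3125 CPM for WT and 1507 CPM for Mkx-/-. The gene was thus carried by a minority of cells, and that minority was smaller in the mutant. Among 227 WT cells 58 had a read (25.6%, 20.01 to 31.7), and among 224 Mkx-/- cells 29 did (12.9%, 8.85 to 18.1). With each cell reduced to 20000 reads and shallower cells left out (2 WT and 5 Mkx-/-), the expected shares were 21.6% and 9.52%, so the gap was also present at a common depth.

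The cells that had Cyp1b1 reads also held fewer of them in the mutant. Among cells with a read the median level was 302 CPM for WT and 84.9 CPM for Mkx-/-, although the ranges overlapped throughout (8.03 to 3125 CPM and 7.54 to 1507 CPM). Levels above 500 CPM were seen in 21 WT and 6 Mkx-/- cells. A single cell held 7.69% of the WT reads and 21.3% of the Mkx-/- reads, and 9 and 4 cells respectively held 50% of them. With both leading cells removed the log2 ratio was -2.24.

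**Figure D1:**
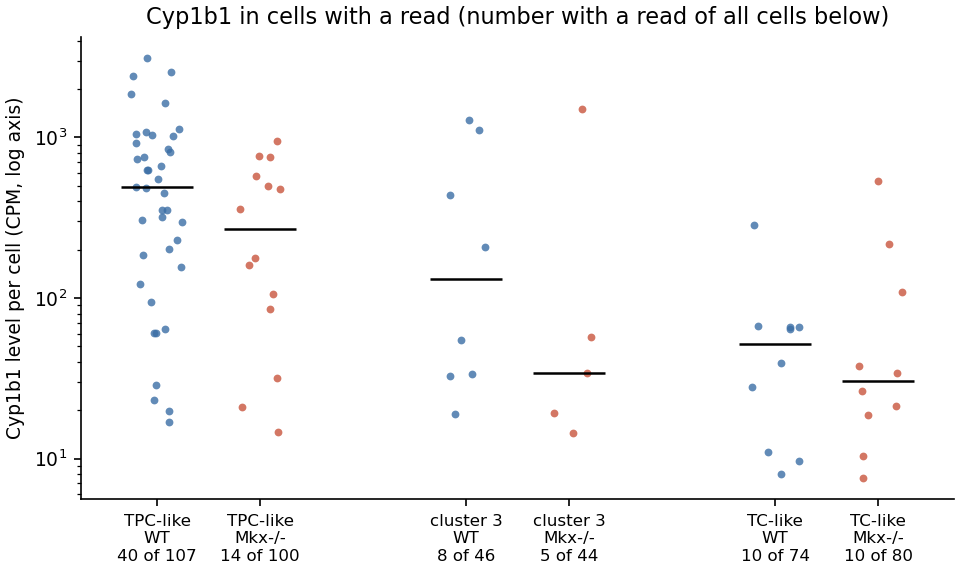
Cyp1b1 level in CPM on a log axis for each cell with at least 1 Cyp1b1 read, by cell group and genotype (blue, WT; red, Mkx-/-); each point is 1 cell, bars mark medians, and the number of cells with a read out of all cells stands under each column. In the TPC-like group 40 WT and 14 Mkx-/- cells had a read, whereas the TC-like group had 10 such cells in each genotype.

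Most of the difference lay in the TPC-like cells. There the WT cells stood at 265 CPM (251 to 279, 1399 reads) and the Mkx-/- cells at 59.7 CPM (53.2 to 66.8, 306 reads), for a log2 ratio of -2.15 (-2.33 to -1.97), and 40 WT (37.4%) but 14 Mkx-/- cells (14%) had a read. Their median level was 489 CPM for WT and 267 CPM for Mkx-/-, and 19 WT against 4 Mkx-/- cells were above 500 CPM. At 20000 reads per cell the shares with a read were 34.1% and 12.6%. In cluster 3 the summed levels were 91.3 CPM in WT and 24.7 CPM in Mkx-/-, a log2 ratio of -1.88 (-2.36 to -1.43). That value rested on 8 WT and 5 Mkx-/- cells, of which 1 Mkx-/- cell held 45 of the 52 reads, and it was -0.69 when cells were clustered in 10 dimensions instead of 4 and -4.05 once both leading cells were removed.

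The TC-like cells held little Cyp1b1, and the direction of their difference between genotypes did not outlast the removal of 1 well. The summed levels were 19.2 CPM (15.95 to 22.9) for WT and 11.3 CPM (8.92 to 14.1) for Mkx-/-, a log2 ratio of -0.77 (-1.20 to -0.35). A read was present in 10 of 74 WT (13.5%) and 10 of 80 Mkx-/- cells (12.5%). A single WT well, the deepest of all with 335813 reads, held 96 of the WT reads in this group, at 285.9 CPM, and without it the log2 ratio was 1.38. Of the 78 Mkx-/- reads 46 lay in 1 cell, and with both leading cells removed the log2 ratio was 0.12. Across the 3 groups the level ran in the order TPC-like, cluster 3, TC-like in both genotypes. In WT cells the order held when the leading cell of each group was left out (241.9, 56.05 and 4.32 CPM), but in Mkx-/- cells cluster 3 and the TC-like group then stood at 3.38 and 4.69 CPM, from 7 and 32 reads, behind 42.4 CPM in the TPC-like group. Cyp1b1 was among the genes used for clustering, and grouping without the pathway and P450 genes placed 447 of the 451 cells in the same group and gave -2.11 for the TPC-like cells.

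Of the 8 genes, 7 had the 100 reads over both genotypes that were required for a call of at least a 2-fold difference, and Ahrr did not. Cyp1b1 was the only 1 of these 7 that was lower by 2-fold, against 6.12% of 10963 genes that reached 100 reads, and none was higher by 2-fold, against 7.23%. Since Cyp1b1 was chosen for that contrast, its count says nothing further. Of the 6 other measured members 5 had a log2 ratio below 0, and 4 did without the WT well with most reads, beside 44.9% of all genes tested. The interval lay below 0 for Arnt, Tiparp and Hmox1, and without that well for Arnt and Tiparp. The share of all genes with such an interval was not counted, and intervals are narrow for genes with many reads. The log2 ratios of the 6 other measured members ran from -0.58 to 0.41, and Arnt, the lowest, was at -0.94 as a mean over cells.

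**Figure D2:**
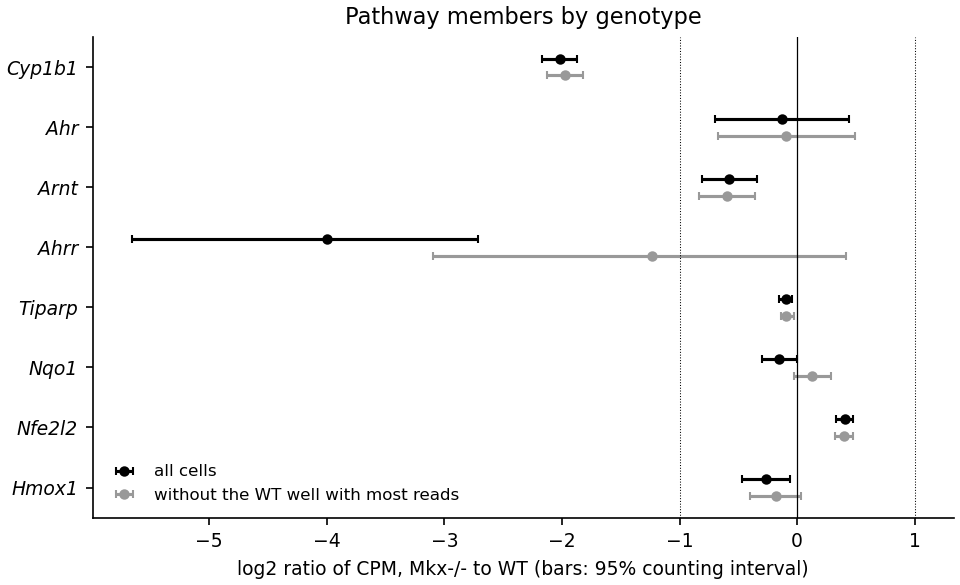
Log2 ratio of the summed CPM in Mkx-/- cells to that in WT cells for the 8 pathway genes; bars are 95% counting intervals, black points use all cells, grey points leave out the WT well with most reads, and dotted lines mark 2-fold. Cyp1b1 stayed near -2 with and without the well (-2.02 and -1.97), while Ahrr moved from -4.00 to -1.23.

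The receptor and its partner were sparse. Ahr (chr12:35497979-35534989) had 56 reads in 9 WT cells and 53 reads in 9 Mkx-/- cells, or 4.11 CPM (3.10 to 5.34) and 3.75 CPM (2.81 to 4.90), for a log2 ratio of -0.13 (-0.70 to 0.44). The highest cells were at 328 CPM for WT and 331 CPM for Mkx-/-, and a single Mkx-/- cell held 31 of its 53 reads. Only 3 WT and 2 Mkx-/- cells had reads of both Ahr and Cyp1b1. In TPC-like cells Ahr was at -1.54 (-2.57 to -0.60) from 39 and 13 reads, while the TC-like group gave 2.56 (1.19 to 4.27), with 5 WT reads against 32. Over all cells the interval includes 0, and the value was -0.76 once both leading cells were removed, so the reads do not settle whether Ahr followed Cyp1b1. Arnt (chr3:95434367-95497240), the obligate partner, was at 27.2 CPM (24.5 to 30.1, 371 reads) in the WT and 18.2 CPM (16.1 to 20.6, 258 reads) in the mutant cells, giving -0.58 (-0.81 to -0.34). As a mean over cells the ratio was -0.94. Arnt reads were present in 56 WT (24.7%) and 37 Mkx-/- cells (16.5%), with highest levels of 739 and 457 CPM. By group Arnt was at -0.84 in TPC-like, -1.17 in cluster 3 and -0.36 in TC-like cells, each with an interval below 0. How many of all genes had such values in every group was not counted.

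Of the genes that restrain the receptor, Tiparp differed little between genotypes over all cells and Ahrr had too few reads to say. Tiparp (chr3:65528447-65555518), which encodes a mono-ADP-ribosyltransferase that modifies the receptor, was read in most cells, 81.5% of WT and 84.8% of Mkx-/- cells. Its median level per cell was 262 CPM in WT (0 to 3441) and 249 CPM in Mkx-/- cells (0 to 4698), which overlapped almost wholly. Its summed levels were 430 and 403 CPM, a log2 ratio of -0.09 (-0.15 to -0.04). By group the ratio was -0.02 in TPC-like cells (485 and 479 CPM), 0.53 in cluster 3 (473 and 685 CPM) and -0.50 in TC-like cells (370 and 261 CPM). In the TPC-like cells, where Cyp1b1 differed most, Tiparp was therefore within counting error of no difference. A long non-coding RNA, 4931440P22Rik, overlaps Tiparp and had 22 reads in all, and the strand used in counting is not given in the sources used here.

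Ahrr (chr13:74211118-74292331), the receptor repressor, had 77 reads in 4 WT cells and 5 reads in 2 Mkx-/- cells. The log2 ratio of -4.00 (-5.66 to -2.71) came from 66 reads in the deepest WT well. The 11 WT reads left without that well gave -1.23 (-3.10 to 0.42), an interval that holds both 0 and the value of Cyp1b1.

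The same well decided the value of Cyp1a1, the best known receptor target. It held 461 of the 478 WT Cyp1a1 reads (96.4%), at 1373 CPM against 1.28 CPM in all other WT cells together. With it the log2 ratio was -2.49 (-2.84 to -2.16), and without it 2.28 (1.52 to 3.13), from 17 WT and 88 Mkx-/- reads. Cyp1a1 therefore had no direction between genotypes that outlasted the removal of 1 well. The well fell in the TC-like group with reads of all 6 tenocyte markers, and it also had reads of 6 of 7 endothelial and 5 of 7 mural markers. It held 97.7% of the WT reads of Emcn, 93.7% of those of Cdh5, 93.7% of those of Kdr and 93.4% of those of Rgs5, whereas Tek had no read and Acta2 had 1. The well held 75.4%, 51.2% and 48.5% of the WT reads of Kcnj8, Pecam1 and Abcc9. Of the WT reads of Nqo1 it held 19.7%, and of those of Cyp1b1 5.64%. The deposit is described as free of wells with several cells, and whether this well held more than 1 cell was not tested.

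**Figure D3:**
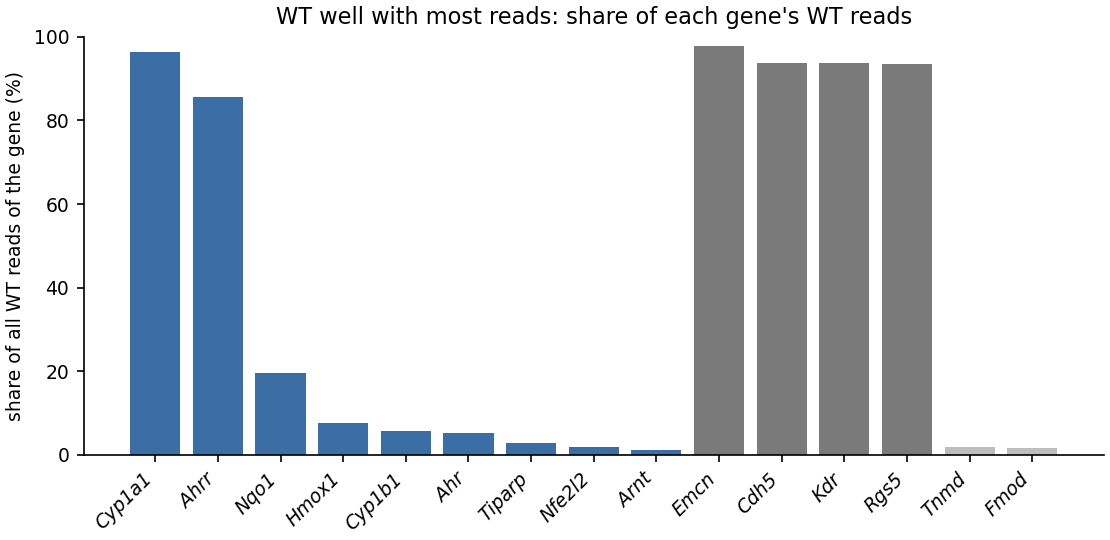
Share of all WT reads of a gene, in percent, that came from the WT well with most reads, for Cyp1a1 and the 8 pathway genes (blue), 4 vascular markers (dark grey) and 2 tenocyte markers (light grey). Cyp1a1 (96.4%) and Ahrr (85.7%) stood near the 4 vascular markers shown, and Tiparp (2.77%) and Nfe2l2 (1.88%) with Tnmd and Fmod. Vascular markers not shown include some with lower shares, from 75.4% for Kcnj8 to 0% for Tek.

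In Mkx-/- cells 50 of the 88 Cyp1a1 reads also lay in 1 well, a TPC-like cell of 48958 reads with none of the endothelial or mural markers. That cell had the highest Tiparp level of all Mkx-/- cells (230 reads, 4698 CPM) and an Nfe2l2 level of 1246 CPM. It had no read of Cyp1b1, Ahrr, Ahr or Nqo1. The 2 wells with most Cyp1a1 thus differed in which other pathway genes they held.

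Of the NRF2 genes, Nfe2l2 was higher in Mkx-/- cells, and Nqo1 and Hmox1 had smaller differences over all cells. Nfe2l2 (chr2:75675513-75704663), the regulator itself, was at 171.6 CPM (164.7 to 178.7, 2339 reads) across WT and 228 CPM (220 to 236, 3218 reads) across Mkx-/- cells, with a ratio of 0.41 (0.33 to 0.48) on the log2 scale. It was the only measured member with a value above 0, and it was higher in the TPC-like group (0.17), in cluster 3 (0.63) and in the TC-like group (0.82). Its median level per cell was 82.3 CPM in WT (0 to 1269) and 118.8 CPM in Mkx-/- cells (0 to 2521). Nqo1 (chr8:107388225-107403205), a quinone reductase, was at 52.97 CPM (722 reads) and 47.8 CPM (676 reads), a log2 ratio of -0.15 (-0.30 to 0.00), and at 0.13 (-0.03 to 0.29) without the deepest WT well. It was read in 68 WT (29.96%) and 53 Mkx-/- cells (23.7%). Nqo1 was lower in TPC-like cells (-0.61, 70.8 and 46.4 CPM) and higher in cluster 3 (0.53, 75.7 and 109.3 CPM), whereas Cyp1b1 was lower in both. Hmox1 (chr8:75093618-75100593), which breaks down haem, was at 30.4 CPM (414 reads) and 25.3 CPM (358 reads), a log2 ratio of -0.26 (-0.47 to -0.06), with reads in 45.4% of WT and 43.3% of Mkx-/- cells. Without the deepest WT well the Hmox1 ratio was -0.18 (-0.40 to 0.03), and as a mean over cells it was -0.10. Its ratio was 0.57 in cluster 3 and -0.71 in TC-like cells. Ahr, Tiparp, Nqo1 and Hmox1 each had ratios of opposite sign in at least 1 pair of cell groups with both intervals clear of 0, as did 34.2% of the 10963 genes.

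**Figure D4:**
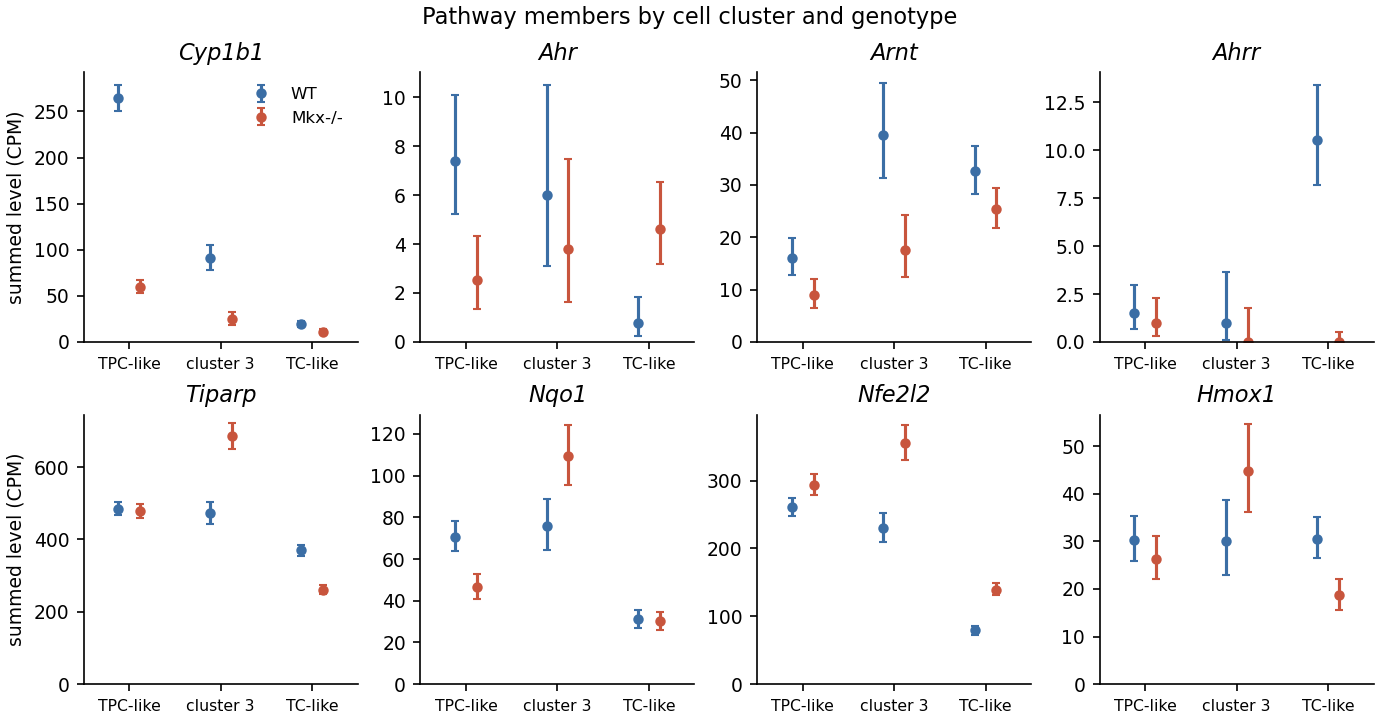
Summed level in CPM of each pathway gene by cell group in WT (blue) and Mkx-/- (red) cells, with 95% counting intervals; the vertical axes differ between panels and start at 0, and levels are compared within a gene only. Cyp1b1 separated by genotype mainly in TPC-like cells (265 and 59.7 CPM), Nfe2l2 was higher in Mkx-/- cells of all 3 groups, and Tiparp, Nqo1 and Hmox1 changed order between groups.

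Within cells, Cyp1b1 kept weak company with the other members. Over the 227 WT cells its level had a Spearman correlation of 0.28 with Nqo1 and of 0.28 with Nfe2l2, and over the 224 Mkx-/- cells the values were 0.01 and -0.02. Its correlation with Tiparp was 0.07 in WT and 0.04 in Mkx-/- cells. The points share their wells and differ in depth, and most are 0, so these weak values are only descriptive. Among 4711 genes detected in no less than 20% of each genotype's cells, the 5 most like Cyp1b1 by the mean of both correlations were Smpdl3a (0.21), Ppig (0.20), Mbnl1 (0.20), Fbn1 (0.19) and Cadm3 (0.19). The 5 least like it were Fmod (-0.18), Col11a1 (-0.17), Snhg18 (-0.16), Fndc1 (-0.16) and Itgbl1 (-0.15), of which Fmod is a tenocyte marker.

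The wider pathway lists were read against the same backgrounds of 6.12% lower and 7.23% higher. Of 13 measured genes of the receptor complex and its partners, 1 was lower by 2-fold and none higher, with a median log2 ratio of -0.03. That gene was Arnt2, which encodes a further partner of PAS proteins, at 22.6 CPM (20.1 to 25.3) in WT cells and 11.2 CPM (9.56 to 13.1) in the mutant, or -1.01 (-1.29 to -0.73), at -1.12 in TPC-like cells, and under 2-fold (-0.91) as a mean over cells. The chaperones with most reads, Hsp90ab1 and Hsp90aa1, were each at 0.03, although Hsp90ab1 has copies elsewhere in the genome and its count is uncertain. Of 18 receptor targets 10 were measured, of which 3 were lower and 2 higher, with a median of -0.01. The lower ones were Cyp1b1, Cyp1a1 with the exception given above, and Gsta1, a glutathione transferase with close paralogues, at 7.92 and 1.84 CPM (log2 ratio -2.11). The higher ones were Cdkn1b and Serpinb2. Cdkn1b, a cell cycle inhibitor, was at 12.99 and 26.1 CPM (1.01, and 0.79 in cells under 5000 genes). Serpinb2, an inhibitor of plasminogen activators, was at 3.79 from 0.807 and 11.2 CPM, read in 0.881% and 3.13% of cells. Its 61.8 CPM in the Mkx-/- cells of cluster 3 came from 130 reads in 2 of 44 cells. In TC-like cells its 19 Mkx-/- reads lay in 1 cell, against 0 reads in WT. In TPC-like cells its ratio was -0.11 (-1.58 to 1.35). Targets with most reads, Tiparp and Nfe2l2, were below 2-fold, as given above. Of the 10 measured targets 5 had a ratio above 0 and 5 below it. The 2 calls of higher lay at the threshold or in few cells, and Gsta1 was also read in few cells (16 WT and 10 Mkx-/-). Cyp1b1 is counted here although it was chosen for its difference. Without the pathway members 6 targets were measured, of which 2 were lower and 2 higher by 2-fold. Their median was 0.21, with 4 above 0 and 2 below it. Cyp1a2 and Ugt1a6b had no read.

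Among 28 measured genes of the NRF2 system, 3 were lower by 2-fold and none higher, with a median of -0.05. The 3 were Slc7a11, the cystine importer that feeds glutathione synthesis, Gsr, which regenerates reduced glutathione, and Gsta4, a glutathione transferase for lipid aldehydes. Slc7a11 had 2362 WT reads (173.3 CPM, 166.4 to 180.4) against 735 Mkx-/- reads (51.96 CPM, 48.3 to 55.9), which is -1.74 (-1.86 to -1.62) on the log2 scale. It was lower in the TPC-like group (-0.85), in cluster 3 (-2.10) and in the TC-like group (-2.34), and the ratio was -1.44 without the deepest WT well, which held 491 of its WT reads. Gsr was at -1.36 (-1.71 to -1.02) from 248 and 100 reads, at -0.97 as a mean over cells, and at 0.51 (-0.54 to 1.60) in cluster 3. Gsta4 was at -1.96 (-2.31 to -1.63) from 353 and 94 reads, at -3.08 as a mean over cells and at -3.80 once both leading cells were removed. The 2 subunits of the enzyme that makes the glutathione precursor were below 2-fold, with Gclm at -0.92 (-1.04 to -0.79) and Gclc at -0.45 (-0.59 to -0.31). Thioredoxin and peroxiredoxin genes, the other reducing system on the list, had values at or above 0 for Srxn1 (0.41, 0.34 to 0.48), Txn1 (0.25, 0.20 to 0.30) and Prdx1 (0.02, -0.01 to 0.04), the last 2 with most reads of the list, while thioredoxin reductase, Txnrd1, was at -0.28 (-0.36 to -0.21). Of further glutathione genes on the list, Gstm1 was at -0.06 (-0.19 to 0.06) and Gstp1 at -0.05 (-0.17 to 0.07), with intervals that include 0. The glutathione conjugate exporter Abcc1 was at 0.62 (0.44 to 0.79).

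The list of P450 electron donors and of enzymes that share substrates with CYP1B1 had 14 measured genes, of which 1 was lower and 2 higher, with a median of 0.13. Aldh1a3, which makes retinoic acid, had 1001 WT reads (73.4 CPM) and 318 Mkx-/- reads (22.5 CPM), which is -1.71 (-1.89 to -1.52), and was lower in the TPC-like group (-1.33), in cluster 3 (-4.64) and in the TC-like group (-1.67). The genes on the other side were Cyp26a1, which breaks down retinoic acid, at 14.9 and 46.2 CPM (1.63, 1.40 to 1.87), and Crabp2, a retinoic acid carrier, at 18.3 and 38.6 CPM (1.08, 0.86 to 1.30, and 0.95 as a mean over cells). Cyp26a1 was at 31.6 and 91.1 CPM in TC-like cells and under 5 CPM in the others, and Crabp2 was higher in all 3 groups. The donors with most reads, Cyb5r3 (-0.07) and Cyb5a (-0.10), and P450 reductase, Por (-0.41), were below 2-fold.

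**Figure D5:**
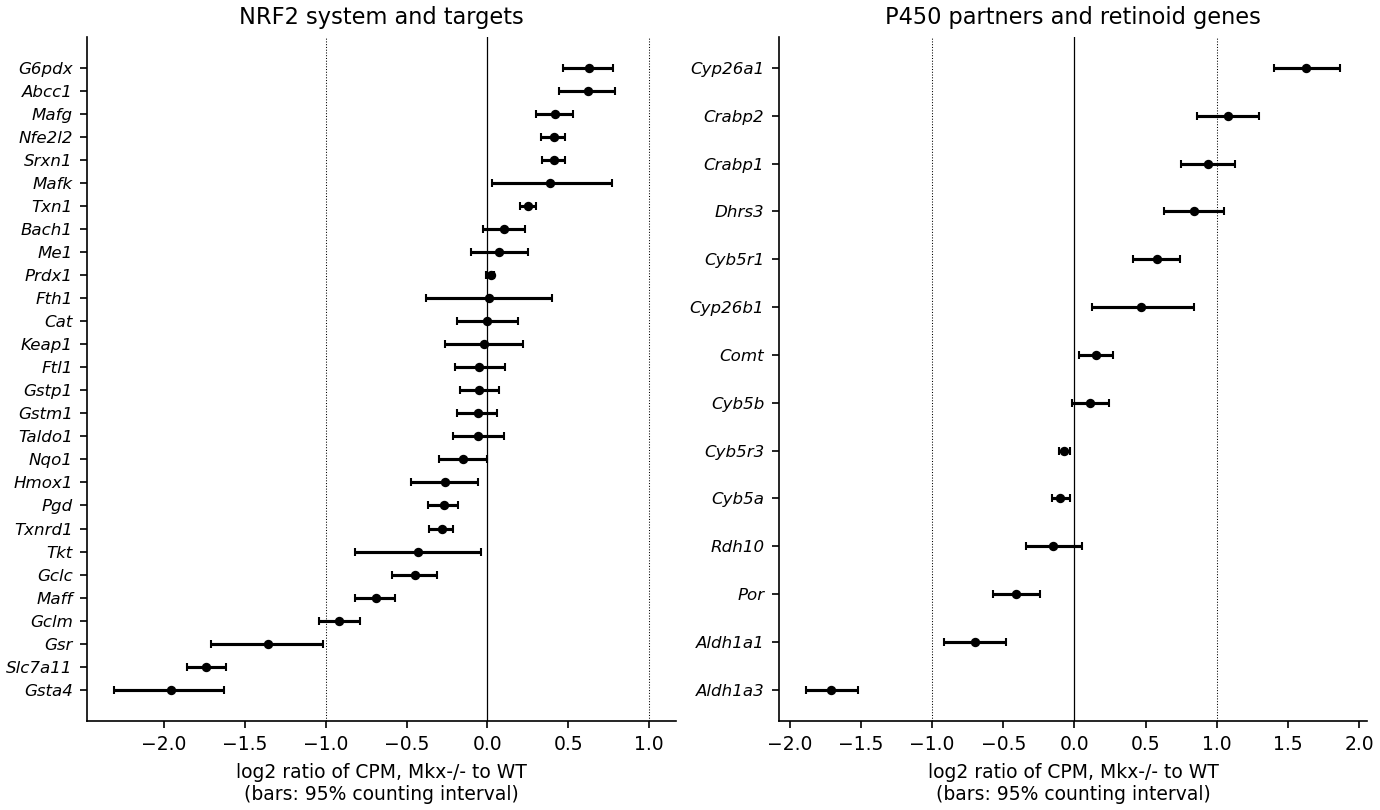
Log2 ratio of the summed CPM in Mkx-/- to WT cells, with 95% counting intervals, for the 28 measured genes of the NRF2 list (left) and the 14 measured genes of the list of P450 donors and retinoid or oestrogen enzymes (right); dotted lines mark 2-fold. Slc7a11, Gsr and Gsta4 lie past 2-fold on the left, and Aldh1a3 lies opposite Cyp26a1 and Crabp2 on the right.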

How the data were processed

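Raw counts, 1 column of reads per cell and 1 line per gene symbol, were deposited by the authors. Per their methods and the submitters' processing notes, reads were cleaned with AfterQC and NGSQCToolkit, aligned with Bowtie2 and counted with featureCounts. The methods name mm9 and the processing notes mm10. Symbols matched RefSeq GRCm38.p6 for 34106 of 48795 and GENCODE M1 for 28993, so positions are from GRCm38.p6. How reads with several positions were placed, and the strand, is not given in the sources used here, and Bowtie2 does not split reads over introns, which can move reads of a spliced gene to an unspliced copy. No member's GENCODE M1 transcript had a further match of at least 200 bases at 95% identity in the mm9 genome. Counts are of reads, not molecules, so intervals cover counting error only. All 37 mitochondrial symbols held 0 reads, and 0 columns were left unused.

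All 451 cells were kept, grouped by the genotype label, and no doublet caller was run. Sums per genotype or cell group were scaled to CPM with exact Poisson intervals. Ratios had exact conditional binomial intervals, with a sum of 0 set to 3 reads, and shares of cells exact Clopper-Pearson intervals. The ratio was checked on counts simulated by independent Poisson draws, a check that does not cover reads clumped in few cells. Cells were clustered with Seurat 5.3.0 (R 4.3.3; 1000 variable genes per genotype, 4 dimensions, resolution 0.4), and other steps used Python 3.11.15, pandas 2.3.3 and scipy 1.17.1. The members and gene lists were chosen with earlier results of these data known. A gene of the list of P450 partners was taken out of it and is not reported here. Beside the 8 members, each list's genes past 2-fold with 100 reads (at most 4 per direction) and its 2 genes with most reads are named, and Gclm, Gclc, Srxn1, Txnrd1, Gstm1, Gstp1, Abcc1, Por and the wells with most Cyp1a1 were added after their values were seen. The likeness to Cyp1b1 used Spearman correlations of CPM per cell. Alternatives covered scaling, cell filters, the read minimum, the leading cell, the mean over cells and the clustering.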

Additional observations from a re-analysis of the deposited data

Results flagged for a closer look

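In 4 members the log2 ratio of Mkx-/- to WT lay on opposite sides of 0 in a pair of the cell groups, with both counting intervals clear of 0. The difference between the groups was not tested, since each genotype is 1 sample, and 34.2% of the 10963 genes with at least 100 reads showed such opposite values in at least 1 pair. Ahr was at -1.54 in TPC-like cells (39 and 13 reads) and at 2.56 in TC-like cells (5 and 32 reads), where a single Mkx-/- cell held 31 reads. Tiparp was at 0.53 in cluster 3 and at -0.50 in TC-like cells. Nqo1 was at -0.61 in TPC-like cells and at 0.53 in cluster 3. Hmox1 was at 0.57 in cluster 3, where 23 of 46 WT and 14 of 44 Mkx-/- cells had a read, and at -0.71 in TC-like cells. Without the leading cell of each genotype in the group, the cluster 3 values were 0.56 for Tiparp, 1.2 for Nqo1 and 0.16 for Hmox1.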

How the results depend on the processing

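The log2 ratio of Cyp1b1 over all cells stayed below -1 under all 8 alternatives, at -1.85 in cells under 5000 genes, -2.42 in cells with at least 2500 genes and -2.24 without its leading cells. The count of members lower by 2-fold became 2, with Ahrr added, at a minimum of 20 reads and with a pseudocount of 1 CPM and no minimum. For Cyp1b1 in TPC-like cells, the value was -2.49 with 10 dimensions, -2.51 without leading cells and -2.38 as a mean over cells, and in cluster 3 it was -0.69, -4.05 and -0.90. In TC-like cells it turned to 0.12 without leading cells, 0.54 as a mean over cells and 1.38 without the WT well with most reads, an alternative added after the data were seen. Cyp1a1 turned to 0.16 as a mean over cells, 2.37 in cells under 5000 genes, 2.28 without the vascular-marked wells (2 WT and 1 Mkx-/-), 1.08 without leading cells and 2.28 without that WT well. Among the 6 lists, the median ratios of the receptor complex (-0.09 to 0.04), the receptor targets (-0.12 to 0.26), the PAS family (-0.19 to 0.14) and the P450 genes (-0.36 to 0.21) took both signs. The median of the NRF2 list reached -0.11 and that of the P450 donors and substrate enzymes 0.21, and neither took both signs. Removal of leading cells moved Serpinb2 to 4.85, Kyat1 to -3.08, Cyp2f2 to -4.87 and Cyp4v3 to -4.10, and the mean over cells moved Per2 to 2.49. Scaling without Col1a1, Col1a2 and Sparc put Cdkn1b at 0.95 and Arntl2 at 0.98. Across all ratios, scaling moved every ratio by -0.001 or -0.059. No paired analysis was possible because the cells carry only a number of their own and each genotype is 1 sample. Depth limits Ahr and Ahrr most, with 53 and 5 Mkx-/- reads. Since the labels name no animal, none of these values carries a replicate error.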

Other observations

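A wider list of genes with a PAS domain, which holds the receptor, its partner and the Per genes, had 13 measured genes. Of these 2 were higher by 2-fold and 1, Arnt2, was lower, with a median log2 ratio of -0.13. Without the pathway members 11 were measured, with the same calls and a median of -0.01. Per2, a repressor of the circadian clock, was at 2.49 CPM (1.73 to 3.49) in WT and 8.70 CPM (7.23 to 10.4) in Mkx-/- cells, a ratio of 1.80 (1.24 to 2.39), with values of 2.96 in TPC-like, 0.70 in cluster 3 and 1.37 in TC-like cells. Arntl2, a clock activator, was at 1.04 (0.52 to 1.58) from 46 and 98 reads, at 0.53 and so under 2-fold as a mean over cells, at 1.92 in cells with at least 2500 genes, and at -4.51 in TC-like cells. Hif1a and Arntl, the members with most reads, were at 0.36 and 0.21. Of 10 enzymes that make receptor ligands from tryptophan, only Kyat1 reached 100 reads, at -2.27 (-3.05 to -1.56) from 93 reads in WT and 20 in Mkx-/- cells.

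Among 94 cytochrome P450 genes of the table, 50 had a read and 17 reached 100 reads, of which 6 were lower and 2 higher by 2-fold in Mkx-/- cells, beside 6.12% and 7.23% of all genes tested. The 6 include Cyp1b1, which was chosen for this difference, and Cyp1a1, which is at 2.28 without 1 WT well. The median was -0.24, but 0.16 as a mean over cells, 0.21 in cells under 5000 genes and 0.14 without that well. Over the 16 measured genes other than Cyp1b1 it was -0.05, with 5 lower and 2 higher by 2-fold. Cyp2f2, known from the oxidation of small aromatic compounds in airway cells, had 434 reads in WT (31.8 CPM) and 42 in Mkx-/- cells (2.97 CPM), a ratio of -3.42 (-3.92 to -2.96). In cluster 3 it was at 170 and 5.70 CPM. Its reads lay in 25 WT and 4 Mkx-/- cells, and 1 cell held 69.05% of the Mkx-/- reads. Cyp4v3, a fatty acid hydroxylase, was at -2.47 (-3.31 to -1.72) from 91 and 17 reads. Cyp21a1, the steroid 21-hydroxylase with a pseudogene copy that makes its count uncertain, was at 1.30 (0.96 to 1.65) from 97 and 248 reads. Cyp20a1, which has most reads after Cyp1b1, was at 0.14 (0.01 to 0.27).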
